A study of Mus musculus with 9 samples.

Results

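Mandibular periosteal progenitors of Plagl1 mutant mice were compared with those of control mice after 3 days of osteogenic induction. The mutant group held 3 libraries of CTSK-iCre;Plagl1 fl/fl cells, and the control group held 3 libraries of Plagl1 fl/fl cells. Induction was with 100 nM dexamethasone, 50 ug/ml ascorbic acid and 5 mM b-glycerophosphate in both groups. Both carry the floxed allele and only the mutant carries the Cre, so the presence of Cre and the loss of Plagl1 cannot be told apart. The Cre is under the control of Ctsk, a gene used by periosteal stem and progenitor cells and by osteoclasts, so cells that never used it keep an intact Plagl1. A further 3 libraries of uninduced Plagl1 fl/fl cells at day 0 entered the statistical fit to share the estimate of the spread and are not described here. Nothing in the labels says how many animals stand behind a library, their age or their sex, or whether libraries came from separate cultures. The p-values therefore speak of library-to-library spread alone, part of which may be technical.

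The genes compared are the autosomal genes of the deposited table with enough reads for a test (edgeR's filterByExpr by group, minimum count 10). These were 12548 of 20794 autosomal genes, out of 13013 tested and 21958 listed genes in all. Just inside this filter lay Shisa9, with 3 reads over the mutant group, 1 over the control group and 39 at day 0. Just outside lay Aqp11, with 30, 38 and 25 reads.

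Plagl1, also called Zac1, encodes a zinc-finger transcription factor that binds GC-rich DNA. It is an imprinted gene, expressed from the paternal copy in most tissues, and is known for its part in a network of imprinted genes that governs embryonic growth. The periosteum is the connective tissue sheath of bone, whose inner layer holds the progenitors of osteoblasts and chondrocytes and whose outer layer is rich in fibroblasts. Osteoblasts are known for laying down a matrix of type I collagen and for the alkaline phosphatase that permits its mineralisation.

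Total counts ran from 17553310 to 18073994 reads in the mutant libraries and from 16467487 to 19859744 reads in the control libraries. A floor of 3 reads corresponded to 0.155 to 0.186 CPM, the unit used here for counts scaled to TMM-adjusted library sizes. The mutant libraries were more spread, with a biological coefficient of variation of 0.0715 in the mutant group and 0.0426 in the control group, and mutant replicates 2 and 3 lay farthest apart. Prrx1, Postn and Ctsk, markers of periosteal mesenchyme, were read in all 6 libraries, and macrophage transcripts were abundant too. The 23 macrophage markers summed to between 24580 and 26800 CPM in the mutant libraries and between 23310 and 25320 CPM in the control libraries. Of these, 11 were called higher and none lower, against 8.02% higher and 9.59% lower over all autosomal genes tested. Of all such genes at 100 CPM or more, 28.2% were called in either direction. The markers called higher numbered 6 without control replicate 2 or without mutant replicate 1, 5 without control replicate 3 and 7 without mutant replicate 2. With offsets for gene length and GC share 10 were higher and 2 lower, and with a replicate block over the day 3 libraries alone 7 were higher. Lyz2, the lysozyme gene of myeloid cells, had 14035, 12923 and 12155 CPM in the mutant libraries and 13847, 12885 and 12083 CPM in the control libraries, so its groups overlapped. Of 10 epithelial markers 7 had no read at day 3, among them Epcam, Krt5 and Krt14, and so had the 4 globin genes. The 4 Y-linked genes summed to 91.6 to 108 CPM in the mutant libraries and 260 to 282 CPM in the control libraries, so genotype and the sex makeup of the libraries cannot be told apart. Short genes were slightly higher and long genes slightly lower in 2 of the 3 mutant libraries; the fit with offsets for length and GC share was chosen after seeing the data, and its value is given where it ends the call of a named gene or moves a list's count by over 1.5 times.

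Plagl1 (ENSMUSG00000019817, chromosome 10, 12936248 to 13007438, GRCm39) was read in every library. Its level was 26.3, 24.2 and 24.8 CPM in mutant replicates 1 to 3, against 43.9, 44.9 and 45.8 CPM in control replicates 1 to 3. The groups did not overlap, and the mutant stood at 0.559 times the control level (log2 fold change −0.84 ± 0.07 SE, adjusted p = 7.59e-09 by edgeR's quasi-likelihood test). Reads were counted over the whole gene, and the labels do not say which segment is floxed, so shortened transcripts and cells with an intact gene cannot be told apart. Ctsk, the cathepsin K gene whose promoter drives the Cre, had 98.1, 98.3 and 95.4 CPM in mutant and 114, 119 and 125 CPM in control libraries, 0.816 times the control level (edgeR adjusted p = 0.001). Among the 27 tested genes within 5 Mb of Plagl1, 2 were called higher and 4 lower. Among the 96 around Ctsk, 12 were called higher and 8 lower. These shares, 22.2% and 20.8%, lie within the range of whole autosomes, from 14.4% of genes called on chromosomes 16 and 17 to 24.5% on chromosome 14.

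In all, 2209 of the 12548 genes (17.6%) were called at an edgeR adjusted p below 0.05, of which 1006 (8.02%) were higher and 1203 (9.59%) lower in the mutant. Over all 13013 tested genes, sex chromosomes included, the shares were 7.95% higher and 9.74% lower. Most differences were small, with a median of 1.28-fold in either direction. At least 2-fold differences were found for 61 higher genes (0.486%) and 206 lower genes (1.64%), so the large differences leaned downwards. With the filter and fit over the day 3 libraries alone, 61 were higher and 185 lower. The group values did not overlap for 4199 genes (33.5%). The share called grew with the level, from 5.21% of genes under 1 CPM to 28.2% of genes at 100 CPM or more. The count depended on the libraries: 1415 genes were called without control replicate 2, the lowest count, and 2832 without mutant replicate 3, the highest. The higher genes numbered 524 without control replicate 2, 650 without control replicate 3 and 660 without mutant replicate 1. Of the called genes, 1106 kept their call and direction in each of 16 alternative analyses that tested them, 404 higher and 702 lower.

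**Figure D1:**
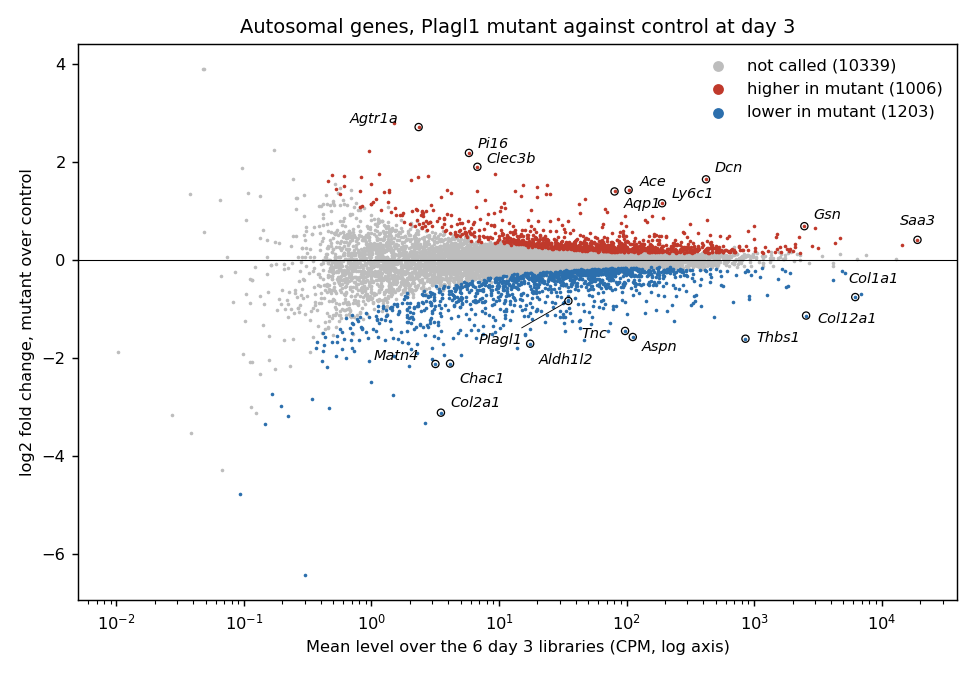
Autosomal genes at day 3: log2 fold change of mutant over control (y axis) against the mean level over the 6 libraries (x axis, CPM, log axis), 1 point per gene, with genes called higher in red and lower in blue. Circled genes are described in the text, from Agtr1a at 2.71 to Col2a1 at −3.12; more blue than red points lie past 2-fold (206 against 61).

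Rises were ranked among called genes with at least 5 CPM and groups that did not overlap, predicted names left out. The 4 largest were of Pi16, Clec3b, Tnxb and Dcn, all genes of fibroblasts and their matrix. Pi16, a peptidase inhibitor that marks fibroblast progenitors near vessels and in fascia, had 9.78, 9.99 and 8.86 CPM in mutant libraries, against 2.01, 2.47 and 1.74 CPM in control libraries (4.55-fold, log2 fold change 2.19 ± 0.21 SE, edgeR adjusted p = 6.2e-08). Clec3b, which encodes the plasminogen-binding protein tetranectin, had 10.6, 13.1 and 8.40 CPM in mutant and 3.05, 2.99 and 2.48 CPM in control libraries (3.74-fold). Dcn, which encodes decorin, a proteoglycan that coats collagen fibrils, had 630, 635 and 643 CPM in mutant and 193, 199 and 217 CPM in control libraries (3.13-fold, log2 fold change 1.65 ± 0.06 SE, edgeR adjusted p = 2.84e-14). In each of these genes every mutant library lay above every control library, which was a condition of this ranking. Tnxb, the tenascin X gene of loose connective tissue, was 3.35-fold higher, and Dpt, which encodes dermatopontin and is a marker of fibroblasts across tissues, was 2.47-fold higher.

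The list of fibroblast and progenitor genes held 40 genes, of which 39 were tested. Of them, 18 were higher and 6 lower, 16 and 5 of these in all 16 alternatives, with a median log2 fold change of 0.15 against 0.003 over all autosomal genes tested. Among the surface markers used to sort mesenchymal progenitors, Ly6c1 had 264, 271 and 252 CPM in mutant and 115, 106 and 132 CPM in control libraries (2.23-fold). Ly6a, which encodes SCA1, stood at 1866, 1702 and 1785 CPM in mutant and 1180, 1146 and 1378 CPM in control libraries (1.45-fold). How the counting treated reads that also match other Ly6 genes was not tested. Thy1, which encodes CD90, was 1.70-fold higher, Cd34 1.37-fold higher, the protein C receptor gene Procr 1.74-fold higher and the ferritin receptor gene Scara5 1.40-fold higher. Gsn, the actin-severing gelsolin, had 3054, 3274 and 2848 CPM in mutant and 1952, 1829 and 1911 CPM in control libraries (1.61-fold). The adhesion receptor gene Adgrd1 was 1.98-fold higher. Not every member moved this way. Nt5e, which encodes the progenitor marker CD73, had 1.72, 1.79 and 1.6 CPM in mutant and 4.30, 6.75 and 5.78 CPM in control libraries, 0.304 times the control level (log2 fold change −1.72 ± 0.21 SE, adjusted p = 2.33e-06 by edgeR). The limb and craniofacial mesenchyme factor Prrx1 was at 0.795 times and the fibril-associated collagen gene Col14a1 at 0.609 times the control level. Postn, which encodes periostin, was at 0.859 times the control level, a call that ended with offsets for length and GC share (log2 fold change −0.08).

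**Figure D2:**
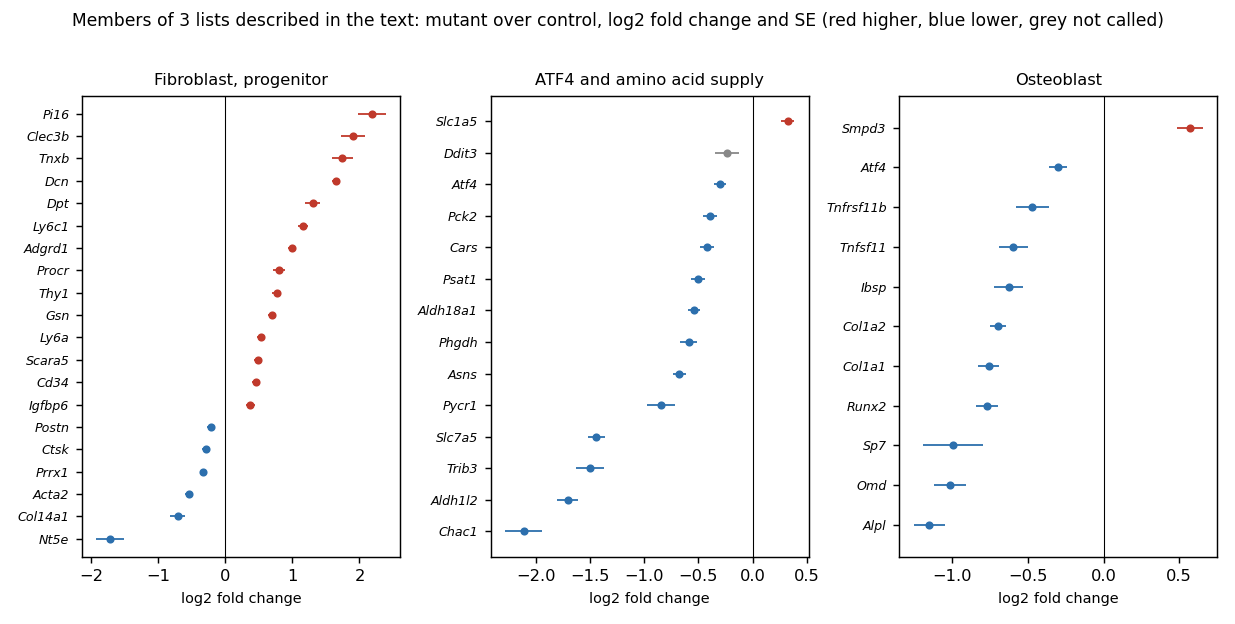
Log2 fold change of mutant over control with its SE (x axis) for the members described in the text (rows) of the fibroblast and progenitor, the ATF4 and amino acid, and the osteoblast lists, red where called higher, blue where called lower and grey otherwise. Fibroblast members run from Pi16 at 2.19 to Nt5e at −1.72, ATF4 members reach down to Chac1 at −2.12 and osteoblast members down to Alpl at −1.15.

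Osteoblast genes were lower. Of 30 listed genes 19 were tested; 12 were lower and 1 was higher (2 higher with offsets for length and GC share), with a median log2 fold change of −0.60. The transcription factor Runx2, needed for osteoblast commitment, had 31.2, 28.2 and 27.8 CPM in mutant and 47.7, 52.3 and 48.4 CPM in control libraries (0.587 times). Sp7, which acts downstream of Runx2, had 2.19, 2.14 and 1.83 CPM in mutant and 4.14, 3.71 and 4.47 CPM in control libraries (0.502 times). Alpl, the tissue-nonspecific alkaline phosphatase, had 10.8, 10.3 and 10.2 CPM in mutant and 22.3, 26.1 and 21.1 CPM in control libraries (0.450 times, log2 fold change −1.15 ± 0.10 SE, edgeR adjusted p = 2.39e-08). For all 3 genes the mutant libraries lay close together and below every control library. Runx2 and Alpl were named for their small p, so for them this follows from the choice. Over all autosomal genes tested, 33.5% had groups that did not overlap. The bone sialoprotein gene Ibsp was at 0.648 times and Tnfsf11, which encodes the osteoclast factor RANKL, at 0.662 times the control level; Tnfrsf11b, which encodes its decoy receptor osteoprotegerin, was at 0.722 times. Smpd3, a sphingomyelinase needed for mineralisation, was 1.49-fold higher. Genes of mature osteoblasts and osteocytes were almost silent in both groups: Bglap had 0 reads over the mutant group and 2 over the control group, Dmp1 had 2 and 0, and Sost had 0 in both. In these bulk cultures, fewer cells of a type and less RNA per cell cannot be told apart.

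The 2 largest falls in CPM were of the type I collagen chains. Col1a1 had 4699, 5084 and 4055 CPM in mutant and 8150, 7568 and 7701 CPM in control libraries (0.591 times), and Col1a2 had 5438, 5465 and 4879 CPM in mutant and 8937, 8314 and 8337 CPM in control libraries (0.617 times). No mutant library came near a control library, and groups without overlap were a condition of this ranking. Of 11 fibrillar collagen genes, all tested, 8 were lower and none higher. Among them Col11a1 was at 0.445 times and Col5a1 at 0.575 times the control level, both chains of the minor fibril collagens that nucleate type I fibrils, while Col3a1 was not called (log2 fold change −0.07 ± 0.05 SE, edgeR adjusted p = 0.37). Of 18 tested other collagens, 8 were lower and 2 higher, 1 higher without control replicate 3. Col12a1, a fibril-associated collagen of tendon and periosteum, had 1716, 1333 and 1747 CPM in mutant and 3481, 3508 and 3555 CPM in control libraries (0.455 times). The network-forming Col8a1 was at 0.420 times, Col8a2 at 0.322 times and the beaded-filament gene Col6a1 at 0.609 times the control level, and Col28a1 was 1.61-fold higher. Enzymes that modify collagen moved less: 11 of 33 were lower and 3 higher, with 1 higher without control replicate 2 or without mutant replicate 1 5 with offsets for length and GC share and 7 without mutant replicate 3. Plod2, the lysyl hydroxylase of bone-type crosslinks, was at 0.653 times and the lysyl oxidase gene Lox at 0.827 times the control level, while Adamts2, which trims the procollagen N-terminus, was 1.33-fold higher.

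Small leucine-rich proteoglycans, which set fibril diameter, differed both ways. Of 9 tested members 6 were lower, 1, Dcn, was higher and 2 were not called. Prelp, one of those 2, had 908, 934 and 863 CPM in mutant and 844, 865 and 856 CPM in control libraries, so its groups overlapped (edgeR adjusted p = 0.30). Aspn, which encodes asporin, had 59.4, 58.5 and 50.9 CPM in mutant and 171, 180 and 151 CPM in control libraries (0.336 times, log2 fold change −1.57 ± 0.07 SE, edgeR adjusted p = 7.7e-13). Fmod, which encodes fibromodulin, had 519, 480 and 455 CPM in mutant and 917, 894 and 828 CPM in control libraries (0.551 times). In both genes, named for their small p, the lowest control library was well above the highest mutant library. Ogn was at 0.483 times, the bone member Omd at 0.495 times and Lum at 0.574 times the control level.

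Elastic fibre genes were divided too, with 7 of 18 lower and 5 higher, all 12 in every alternative. The lower ones included Mfap4 (0.358 times), the latent TGF-beta binding genes Ltbp1 (0.409 times) and Ltbp2 (0.529 times), and the developmental fibrillin gene Fbn2 (0.611 times). The elastin gene Eln had 24.0, 24.3 and 15.9 CPM in mutant and 13.3, 12.5 and 10.4 CPM in control libraries (1.77-fold higher), and the fibulin genes Efemp1 and Efemp2 were 1.40-fold and 1.32-fold higher. Of 25 matricellular genes, whose proteins modulate cell contact with matrix, 14 were lower and 5 higher, with 2 higher without control replicate 3 or without mutant replicate 2, and 3 without control replicate 1, control replicate 2 or mutant replicate 1 or with offsets for length and GC share. Thbs1, which encodes thrombospondin 1, an activator of latent TGF-beta, had 442, 390 and 434 CPM in mutant and 1315, 1265 and 1286 CPM in control libraries (0.328 times, log2 fold change −1.61 ± 0.06 SE, adjusted p = 6.02e-14 by edgeR). The tenascin genes Tnc and Tnn were at 0.366 and 0.497 times the control level. The CCN genes Ccn1, Ccn2, Ccn3 and Ccn4 were at 0.715, 0.639, 0.587 and 0.533 times, and Sparc, which encodes osteonectin, at 0.755 times. Sparcl1, the relative of Sparc found around vessels and in mature connective tissue, went the other way, with 11.6, 12.2 and 8.52 CPM in mutant and 3.38, 4.59 and 6.03 CPM in control libraries (2.33-fold).

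Proteases and receptors of the matrix also differed. Of 27 tested proteases and inhibitors 12 were lower and 5 higher, 3 higher by DESeq2. The collagenase gene Mmp13, a Runx2 target, had 253, 259 and 280 CPM in mutant and 496, 519 and 509 CPM in control libraries (0.52 times), and the gelatinase gene Mmp2 was at 0.532 times. Adamts15, a versican-degrading protease, had 25.7, 32.7 and 29.8 CPM in mutant and 10.6, 10.1 and 10.7 CPM in control libraries (2.81-fold, log2 fold change 1.49 ± 0.10 SE, adjusted p = 4.11e-10 by edgeR). The stromelysin gene Mmp3 was 2.89-fold higher, a call not made by DESeq2 (log2 fold change 1.54, DESeq2 adjusted p = 0.19). None of 17 integrins was higher and 9 were lower; the collagen receptor genes Itga11 and Itga10 were at 0.469 and 0.576 times the control level and Itga8 at 0.500 times. Among 11 tested cadherins 6 were lower and 1 higher. Cdh11, the cadherin of osteoblasts and mesenchyme, had 239, 226 and 234 CPM in mutant and 428, 437 and 419 CPM in control libraries (0.544 times), and Cdh3 was at 0.259 times. The 1 that rose was Cdh5, the endothelial cadherin, 3.35-fold higher at a low level, 2.06 CPM at most in a mutant and 0.670 CPM at most in a control library. Of 10 tested endothelial markers, Cdh5 among them, 3 were higher, 5 higher without mutant replicate 3, and 1 was lower. Their median log2 fold change was 0.52. They summed to 48.5 to 49.2 CPM in mutant and 44.4 to 48.3 CPM in control libraries.

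Cartilage and tendon genes were lower. Of 33 listed genes 21 were tested, 14 were lower and 2 higher, and the median log2 fold change was −0.74. Col2a1 and Col11a1 are counted among the fibrillar collagens as well, and Fmod among the small leucine-rich proteoglycans. Col2a1, the fibrillar collagen of cartilage, had 0.712, 0.577 and 0.858 CPM in mutant and 6.53, 5.87 and 6.46 CPM in control libraries (0.115 times, log2 fold change −3.12 ± 0.19 SE, edgeR adjusted p = 8.27e-11), from 37 reads over the mutant and 338 over the control group. The cartilage link protein gene Hapln1 was at 0.238 times the control level, from 19 reads over the mutant and 85 over the control group. The chondrocyte factor Sox6 was at 0.331 times, Sox9 at 0.685 times and the matrix gene Matn4 at 0.229 times the control level. Mkx, a transcription factor of tendon, was at 0.599 times. Prg4, which encodes lubricin of joint surfaces and of synovial fibroblasts, had 1185, 1342 and 1178 CPM in mutant and 751, 708 and 820 CPM in control libraries (1.63-fold higher).

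Contractile genes were lower in most cases. Of 26 tested genes of smooth muscle and stress fibres 18 were lower and 1 higher (2 without mutant replicate 3), with a median log2 fold change of −0.52; 16 of the 18 held in all alternatives. Cnn1, which encodes calponin, had 2.61, 2.83 and 2.57 CPM in mutant and 8.0, 6.80 and 6.90 CPM in control libraries (0.370 times). Acta2, the smooth muscle actin of activated fibroblasts, had 463, 504 and 425 CPM in mutant and 723, 661 and 643 CPM in control libraries (0.687 times). In both the groups lay apart. Actg2 was at 0.415 times, the myosin kinase gene Mylk at 0.562 times, Tpm1 at 0.607 times and Actn1 at 0.674 times the control level. The 1 higher gene was Des, which encodes desmin (1.63-fold). Des is also 1 of the 11 tested skeletal muscle markers, of which 4 were higher and none lower. Those markers, Des included, summed to 83.3 to 96.0 CPM in mutant and 59.2 to 67.5 CPM in control libraries. Whether skeletal muscle cells had a part in the rise of Des was not tested. The 6 tested pericyte markers summed to 40.4 to 48.5 CPM in mutant and 54.4 to 61.2 CPM in control libraries.

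Genes of the amino acid response were often lower. ATF4 is a transcription factor that is translated when amino acids are short or proteins misfold, and it is known for inducing amino acid transporters, serine and one-carbon enzymes and stress genes through composite C/EBP-ATF elements of the form TGATGNAA. The promoters of 4 members called lower that hold this pattern are shown from RefSeq (GRCm38.p6), each as the 250 bases before the gene's start on the gene's own strand, with the match on either strand in capitals. Chac1 is at chr2:119350992-119351241 (plus strand), Asns at chr6:7693210-7693459 (minus strand), Pycr1 at chr11:120643749-120643998 (minus strand) and Pck2 at chr14:55540016-55540265 (plus strand).
Chac1: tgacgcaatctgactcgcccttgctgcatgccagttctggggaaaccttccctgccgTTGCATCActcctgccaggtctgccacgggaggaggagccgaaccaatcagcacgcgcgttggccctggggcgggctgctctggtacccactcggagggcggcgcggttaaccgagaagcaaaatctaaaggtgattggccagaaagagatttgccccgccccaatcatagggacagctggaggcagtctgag
Asns: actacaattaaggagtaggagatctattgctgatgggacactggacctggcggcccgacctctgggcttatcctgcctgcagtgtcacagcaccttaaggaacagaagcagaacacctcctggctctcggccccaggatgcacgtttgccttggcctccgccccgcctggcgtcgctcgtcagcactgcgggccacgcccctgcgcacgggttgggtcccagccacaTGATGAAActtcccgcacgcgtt
Pycr1: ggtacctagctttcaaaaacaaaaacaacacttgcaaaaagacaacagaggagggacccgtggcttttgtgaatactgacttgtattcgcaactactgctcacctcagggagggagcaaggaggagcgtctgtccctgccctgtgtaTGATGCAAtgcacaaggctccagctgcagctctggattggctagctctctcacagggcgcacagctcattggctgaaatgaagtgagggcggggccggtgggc
Pck2: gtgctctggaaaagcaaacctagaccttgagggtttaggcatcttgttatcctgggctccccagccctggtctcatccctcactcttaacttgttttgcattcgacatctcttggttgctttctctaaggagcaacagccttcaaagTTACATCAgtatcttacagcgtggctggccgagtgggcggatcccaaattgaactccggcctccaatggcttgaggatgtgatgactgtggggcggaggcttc
In this window the pattern was found for 9 of 36 listed genes with a promoter sequence (25%), among them 5 of the 18 called lower. The other listed holders, Atf3, Slc7a11, Fgf21 and Herpud1, were not called. The list is of genes known for the ATF4 response, so its high share is no result of these data. Over the tested autosomal genes 2.05% held the pattern, against 3.53% of all 27025 promoters. It was found for 2.67% of all lower genes and 2.78% of all higher genes. A match is a run of letters and not a shown site of binding.

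Of the 45 listed genes of this response 43 were tested; 22 were lower and 1 higher, 20 and 1 in all alternatives, with a median log2 fold change of −0.30 (2 higher without mutant replicate 1). Chac1, a glutathione-degrading enzyme, had 1.36, 1.85 and 1.43 CPM in mutant and 7.24, 7.06 and 5.84 CPM in control libraries (0.230 times, log2 fold change −2.12 ± 0.17 SE, edgeR adjusted p = 6.29e-09). Slc7a5, the large neutral amino acid transporter, had 16.3, 20.2 and 16.5 CPM in mutant and 48.1, 47.6 and 48.5 CPM in control libraries (0.368 times). The gap between the groups was wider than the spread within either in both genes, which were named for their small p. The mitochondrial one-carbon enzyme gene Aldh1l2 was at 0.305 times and the pseudokinase gene Trib3 at 0.353 times the control level. Asns, the asparagine synthetase, had 46.8, 45.6 and 44.3 CPM in mutant and 70.0, 74.4 and 74.4 CPM in control libraries (0.625 times). Enzymes of serine and proline synthesis were lower by similar amounts, with Phgdh at 0.663, Psat1 at 0.704, Pycr1 at 0.556 and Aldh18a1 at 0.687 times the control level. Atf4 itself had 128, 143 and 121 CPM in mutant and 160, 161 and 163 CPM in control libraries (0.812 times, log2 fold change −0.30 ± 0.06 SE, edgeR adjusted p = 0.000821), a difference in its RNA and not its protein. The other members were not uniform. Slc1a5, a glutamine transporter, was higher (log2 fold change 0.32), and Ddit3, which encodes CHOP, was not called (log2 fold change −0.24 ± 0.11 SE, edgeR adjusted p = 0.14). Of 19 cytosolic tRNA synthetases 7 were lower and 2 higher, with 4 lower and none higher without mutant replicate 1, none higher without control replicate 2, 1 higher without control replicate 1 or control replicate 3, and 4 higher without mutant replicate 3; Cars was at 0.746, Gars at 0.819 and Aars at 0.842 times the control level.

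**Figure D3:**
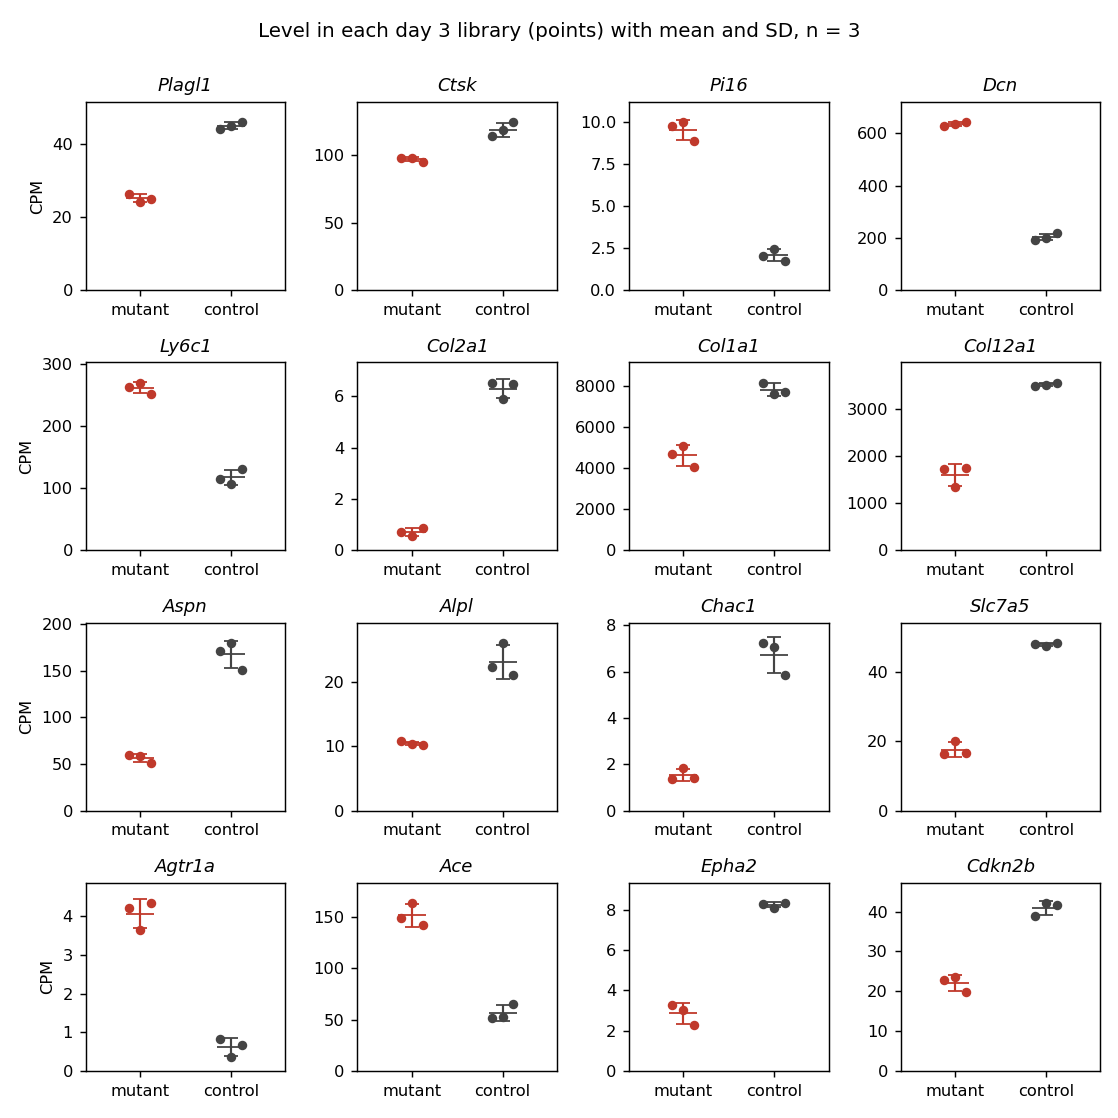
Level (y axis, CPM from 0) of 16 genes in each day 3 library (points), mutant left in red and control right in grey, with mean and SD (n = 3). In none of the 16 genes do the groups overlap, as for Chac1 with 1.36 to 1.85 CPM in mutant and 5.84 to 7.24 CPM in control libraries. Most of the 16 were picked for large changes or small p in these libraries, so this follows from the choice. Over all autosomal genes tested, the groups do not overlap for 33.5%.

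Genes of vasoactive peptide signalling included some of the largest rises. Agtr1a, the angiotensin II receptor, had 4.21, 3.64 and 4.34 CPM in mutant and 0.817, 0.361 and 0.683 CPM in control libraries (6.56-fold, log2 fold change 2.71 ± 0.31 SE, edgeR adjusted p = 1.2e-06). Ace, which makes angiotensin II, had 149, 163 and 142 CPM in mutant and 51.1, 52.2 and 65.6 CPM in control libraries (2.69-fold). Both genes were higher in each mutant library than in any control library, as follows from their choice by small p. The receptor genes of oxytocin and vasopressin, Oxtr and Avpr1a, were 3.29-fold and 2.65-fold higher. Oxtr did not enter the ranking of largest rises, which needed at least 5 CPM and groups without overlap. The peptide gene Adm, which encodes the vasodilator adrenomedullin, was 1.85-fold higher. Over the 39 tested members 12 were higher and 6 lower, with 7 higher without control replicate 2 and 3 lower without control replicate 1. Among the lower ones were the inducible cyclooxygenase gene Ptgs2 (0.437 times) and the prostaglandin F receptor gene Ptgfr (0.633 times).

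Transcription factors that pattern the skeleton were lower more often than higher. Of 72 listed genes 52 were tested, 16 were lower and 5 higher, the median log2 fold change was −0.33, and 3 were higher without mutant replicate 2. Alx4, a homeodomain factor of craniofacial and limb mesenchyme, had 14.1, 15.9 and 12.2 CPM in mutant and 32.0, 27.5 and 27.0 CPM in control libraries (0.487 times). Eya1 and Eya4, which encode transcriptional coactivators, were at 0.622 and 0.554 times the control level. Osr1, a zinc-finger factor of connective tissue fibroblasts, was opposite, with 57.1, 63.2 and 55.3 CPM in mutant and 28.9, 25.3 and 25.4 CPM in control libraries (2.21-fold, log2 fold change 1.14 ± 0.07 SE, adjusted p = 2.17e-10 by edgeR). The mesenchymal T-box gene Tbx15 was 1.39-fold higher and Lhx8 1.32-fold higher, both with group values that did not overlap.

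Axon guidance genes, which also steer mesenchymal and vascular cells, were lower more often than higher, with 19 of 51 lower, 4 higher and 28 not called. The netrin receptor gene Unc5c had 9.67, 7.68 and 7.37 CPM in mutant and 23.4, 23.3 and 25.3 CPM in control libraries (0.343 times), while the netrin gene Ntn1 had 23.4, 23.8 and 23.7 CPM in mutant and 11.9, 11.1 and 12.2 CPM in control libraries (2.02-fold higher). A ligand and its receptor thus differed in opposite directions. Members of the Eph and ephrin families among the lower genes were Epha2 at 0.346, Epha4 at 0.431, Efna5 at 0.429 and Efnb2 at 0.474 times the control level. Sema3a, a semaphorin that acts on bone, was at 0.430 times and the Slit receptor gene Robo1 at 0.543 times, and the Slit gene Slit3 was 1.40-fold higher. Of the 4 higher genes, 2 were called without control replicate 1 or without control replicate 3.

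Growth factor systems leaned the same way. In the BMP and TGF-beta list 17 of 41 genes were lower and 4 higher, 2 higher without control replicate 2 or without mutant replicate 1. Tgfb3 had 37.5, 42.2 and 32.8 CPM in mutant and 75.4, 70.1 and 71.4 CPM in control libraries (0.519 times). The activin subunit gene Inhba and the activin antagonist gene Fst were at 0.538 and 0.612 times the control level. The BMP antagonist gene Nog was at 0.330 times, and Gdf10, which was read at low level, was 2.69-fold higher. Nog did not enter the ranking of largest falls, which needed at least 5 CPM and groups without overlap. In the Wnt list 16 of 41 genes were lower and 4 higher. The lower ones included the ligands Wnt10b (0.335 times), which favours bone over fat, and Wnt5a (0.642 times). Like Nog, Wnt10b did not enter the ranking of largest falls. The higher ones included the receptor gene Fzd4 (1.6-fold) and the secreted antagonists Sfrp1 (1.40-fold) and Sfrp2 (1.55-fold). In the list of FGF, EGF and PDGF genes 12 of 41 were lower and 1 higher, 2 higher with offsets for length and GC share. Fgfr2, the FGF receptor of osteoprogenitors, had 28.5, 23.7 and 22.9 CPM in mutant and 58.0, 58.1 and 61.4 CPM in control libraries (0.423 times), and Fgfr3, the receptor of chondrocytes, was at 0.378 times. In the IGF system 10 of 21 genes were lower and 3 higher. The binding protein gene Igfbp2 had 21.5, 24.8 and 20.5 CPM in mutant and 57.6, 49.6 and 50.6 CPM in control libraries (0.424 times), the protease gene Pappa2 was at 0.465 times and Igf1 at 0.702 times, while Igfbp3 and Igfbp6 were 1.34-fold and 1.29-fold higher.

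Cell-cycle genes differed both ways. Of 42 tested genes 17 were higher and 7 lower, with 10 higher without control replicate 2. Among the higher ones, Cdc20, an activator of the anaphase complex, had 22.3, 25.1 and 21 CPM in mutant and 15.3, 13.8 and 15.3 CPM in control libraries (1.54-fold), and the proliferation marker Mki67 had 111, 104 and 115 CPM in mutant and 94.8, 79.9 and 80.3 CPM in control libraries (1.29-fold). Cdk1 was 1.29-fold and Plk1 1.39-fold higher. Among the lower ones, Cdkn2b and Cdkn2a, the neighbouring genes of inhibitors that accumulate in senescent cells, were at 0.541 and 0.543 times the control level; Cdkn2b had 22.7, 23.7 and 19.9 CPM in mutant and 38.8, 42.1 and 41.6 CPM in control libraries (log2 fold change −0.89 ± 0.08 SE, adjusted p = 2.59e-08 by edgeR). The D-type cyclin genes Ccnd1 and Ccnd2 were at 0.735 and 0.700 times.

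Innate immune genes were higher more often than lower. Of 46 tested cytokine and chemokine genes 15 were higher and 4 lower, and 7 lower without mutant replicate 2. Ackr3, a scavenging receptor of the chemokine CXCL12, had 69.6, 67.5 and 61.8 CPM in mutant and 26.1, 27.2 and 30.9 CPM in control libraries (2.37-fold, log2 fold change 1.24 ± 0.07 SE, edgeR adjusted p = 4.96e-11), and Cxcr4, the signalling receptor of the same chemokine, was at 0.562 times the control level. The alarmin gene Il33 was 1.78-fold and the granulocyte factor gene Csf3 1.93-fold higher. Lcn2, an iron-trapping protein, had 3398, 3888 and 3625 CPM in mutant and 2280, 2386 and 2294 CPM in control libraries (1.57-fold). The serum amyloid gene Saa3, the transcript with the largest rise in reads, had 20076, 24035 and 21265 CPM in mutant and 16125, 16255 and 16819 CPM in control libraries (1.33-fold), a call not made by DESeq2 (adjusted p = 0.20). Next in rise of reads came the ferritin chain Fth1 (1.23-fold) and the macrophage scavenger receptor gene Marco (1.37-fold). Of 17 complement genes 6 were higher and 1 lower, 2 lower without control replicate 1, without mutant replicate 3 or with offsets for length and GC share; C4b had 92.4, 96.7 and 86.6 CPM in mutant and 47.3, 40.7 and 45.4 CPM in control libraries (2.07-fold), and Serping1, the C1 inhibitor, was 1.5-fold higher. Interferon-stimulated genes were called higher in 8 of 33 cases and lower in none, but in 2 without control replicate 1 or without control replicate 2, in 5 without mutant replicate 1, in 4 without mutant replicate 2 and in 3 by DESeq2. The count was larger elsewhere, with 14 for the day 3 libraries alone or by limma voom, 15 with no filter, and 12 with offsets for length and GC share or with a replicate block over the day 3 libraries alone. Of 19 MHC and antigen presentation genes 7 were higher, with 2 without control replicate 2, 3 without mutant replicate 1, and 4 without control replicate 1, without mutant replicate 2 or with offsets for length and GC share. The macrophage markers given above were also called higher in part, and their part in these rises was not tested.

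Glucocorticoid-responsive genes were compared because both groups had dexamethasone. Of 22 tested genes 9 were higher and 3 lower, 1 lower without control replicate 2. The metallothionein gene Mt1 had 313, 387 and 290 CPM in mutant and 231, 208 and 231 CPM in control libraries (1.48-fold), and the factor Klf15 was 1.41-fold higher. Pdk4, the kinase that shuts pyruvate out of mitochondria, had 227, 222 and 234 CPM in mutant and 343, 346 and 367 CPM in control libraries (0.648 times, log2 fold change −0.63 ± 0.05 SE, edgeR adjusted p = 6.92e-09). Over all autosomal genes tested 8.02% were higher and 9.59% lower, so 3 lower of 22 is not read as a trait of the class. Of 16 tested adipocyte genes 5 were higher and none lower, 3 higher without control replicate 2, control replicate 3 or mutant replicate 1; Ebf2, a factor of brown fat precursors, had 13.8, 13.9 and 14.7 CPM in mutant and 5.72, 7.88 and 6.40 CPM in control libraries (2.11-fold).

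Gene length moved with the fold change as well. The median log2 fold change was 0.10 over the 1445 tested genes under 2 kb and −0.09 over the 2348 genes of 8 kb or more. Set against the control mean, the medians of these 2 classes were 0.10 and −0.08 in mutant replicate 1, 0.19 and −0.17 in mutant replicate 2, and 0.03 and −0.01 in mutant replicate 3. The control libraries had 0.04 and −0.03, −0.03 and 0.02, and −0.01 and 0.01. Mutant replicate 3 thus lay within the control range, and the trend came from the other mutant libraries. Genes with a GC share under 44% had a median of −0.07 and those with 52% or more a median of 0.06. Such shifts are small beside the large differences described above but as large as many of the small ones.

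**Figure D4:**
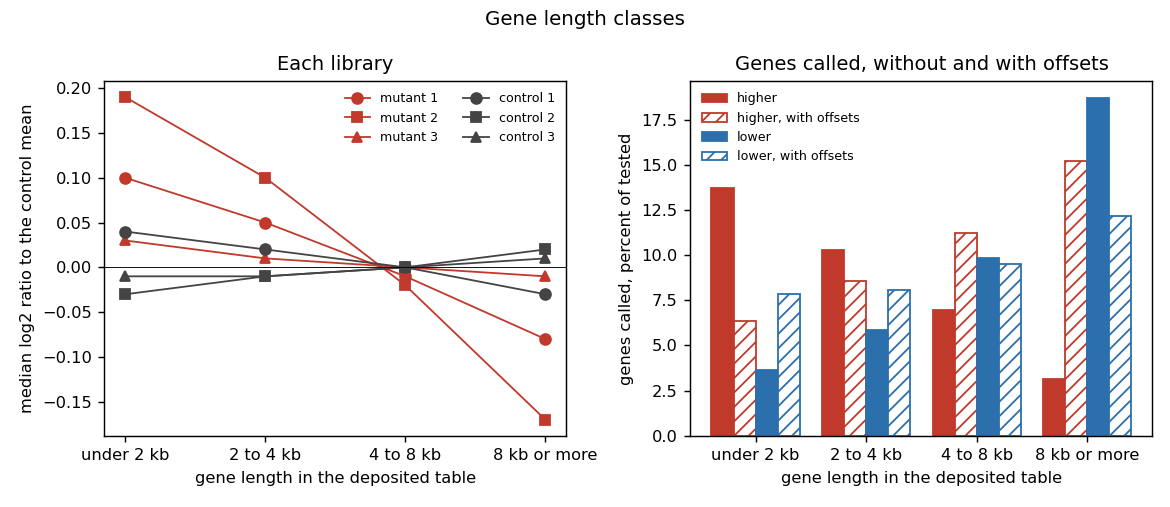
Gene length classes: the left panel plots the median log2 ratio to the control mean (y axis) of each mutant (red) and control (grey) library by class of gene length (x axis), and the right panel the percent of tested genes called higher (red) and lower (blue), filled without and hatched with offsets for length and GC share. Mutant replicate 2 runs between 0.19 and −0.17, mutant replicate 3 stays near 0, and with offsets the genes called under 2 kb change from 198 higher and 53 lower to 92 higher and 113 lower.

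Among metabolic and organelle genes, several lists differed. Of 34 tested subunits of oxidative phosphorylation 14 were higher and none lower, with 9 with offsets for length and GC share, 9 without control replicate 2 or without mutant replicate 1, and 7 without control replicate 3. Uqcrc1, a core subunit of complex III, had 99.7, 104 and 92.8 CPM in mutant and 83.1, 78.4 and 79.3 CPM in control libraries (1.23-fold). None of 46 cytosolic ribosomal protein genes was called by edgeR (8 at an unadjusted p below 0.05), 1 by DESeq2 and 7 by limma voom, with a median log2 fold change of 0.07 against 0.002 with offsets. Of 32 chaperones and secretory genes of the endoplasmic reticulum 10 were higher and 3 lower, with 6 higher without control replicate 3, and 1 lower without control replicate 2, control replicate 3 or mutant replicate 1; Sdf2l1 was 1.46-fold and Calr, which encodes calreticulin, 1.2-fold higher. Of 34 genes of cholesterol and fatty acid synthesis 9 were lower and none higher, 4 without control replicate 3, with Hmgcs1 at 0.843 times the control level. In the glycolysis list, which included hypoxia-induced genes, lower members were Vegfa at 0.671 times, Pdk1 at 0.768 times and the lactate exporter gene Slc16a3 at 0.803 times; in all, 5 of 25 members were lower and 3 higher. The lower ones numbered 3 without control replicate 1, control replicate 2, mutant replicate 1 or mutant replicate 3 and 8 without mutant replicate 2, and the higher ones 5 with offsets for length and GC share, 1 without control replicate 2 or mutant replicate 1 and 0 without control replicate 3 or mutant replicate 2.

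**Figure D5:**
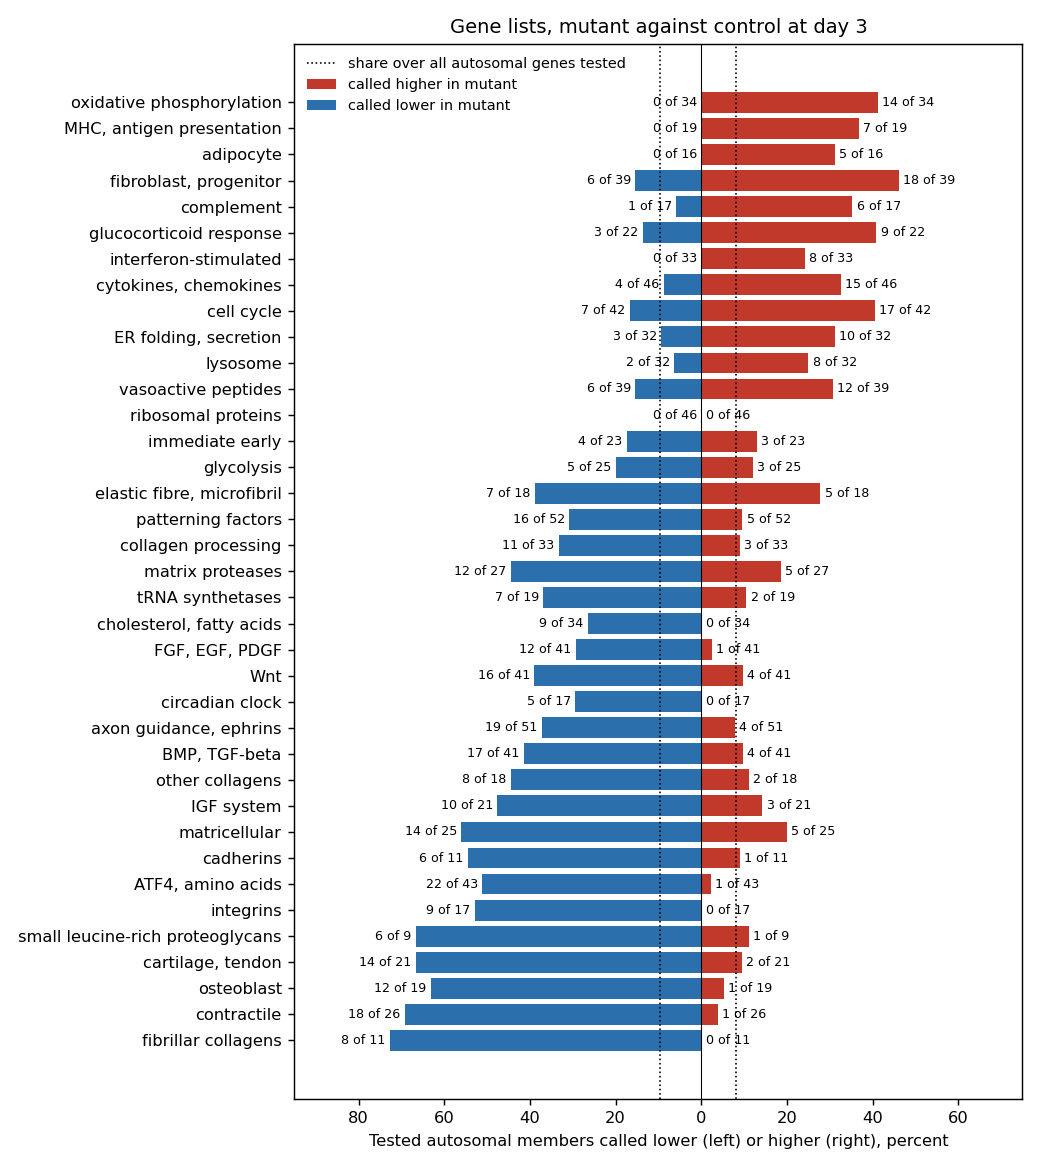
Percent of tested autosomal members of each list of tissue and pathway genes (marker lists of other cells are not drawn) called lower (blue, left) and higher (red, right) in the mutant, with the counts beside the bars and dotted lines at the share over all autosomal genes tested (9.59% lower, 8.02% higher). Fibrillar collagens (8 of 11) and contractile genes (18 of 26) reach farthest to the left, and the fibroblast and progenitor list (18 of 39) farthest to the right.

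Outside the lists, other genes with at least 5 CPM and among the 15 largest changes either way included an enzyme of glycine breakdown and a water channel. Gldc, the glycine decarboxylase of one-carbon metabolism, had 24.2, 23.4 and 21.6 CPM in mutant and 8.77, 8.24 and 6.96 CPM in control libraries (2.87-fold). The water channel gene Aqp1 had 133, 110 and 107 CPM in mutant and 41.2, 42.5 and 49.2 CPM in control libraries (2.64-fold), and Aldh1a2, which makes retinoic acid, had 36.2, 31.7 and 40.6 CPM in mutant and 15.7, 12.4 and 14.9 CPM in control libraries (2.53-fold). In each of the 3 the groups did not overlap, which was a condition of this ranking. The adhesion gene Sdk1 was 2.54-fold and the PACAP receptor gene Adcyap1r1 2.68-fold higher. Among the falls, Megf6 was at 0.289 times the control level. Gpx3, the secreted glutathione peroxidase, was among the 10 largest falls in reads, with 1566, 1552 and 1369 CPM in mutant and 2231, 2116 and 2175 CPM in control libraries (0.688 times).

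Past 4-fold lay 24 called genes, 4 higher and 20 lower, of which 20 were under 5 CPM in both groups. The filter also used the day 0 control libraries, which had no mutant counterpart, so genes low in the mutant could pass through them. The count of 20 against 4 can therefore depend on the filter. Those named next were chosen after their values were seen. Trim66, a gene of the TRIM family, had 24 reads over the mutant group and 257 over the control group (log2 fold change −3.34 ± 0.24 SE, edgeR adjusted p = 7.6e-10), or 10.1-fold lower. Cyb5r2, a cytochrome b5 reductase gene 1.69 Mb away on chromosome 7, had 0 reads over the mutant group and 32 over the control group, at least 10.4-fold lower against a floor of 3 reads over the group. Cyb5r2 had 139 reads over the day 0 control libraries. The neighbouring GABA receptor subunit genes Gabrb1 and Gabra4 had 60 and 2 reads over the mutant group and 255 and 19 over the control group. Over the day 0 control libraries they had 301 and 105 reads. The coordinates of these neighbours overlap, and how the counting treated reads in the overlap was not tested. The call of Gabra4 ended without control replicate 1 (edgeR adjusted p = 0.12) or without mutant replicate 1 (edgeR adjusted p = 0.085). In the other direction the splicing factor gene Nova1 had 136 reads over the mutant group and 20 over the control group (log2 fold change 2.81 ± 0.38 SE, edgeR adjusted p = 1.06e-05), and the pancreatic polypeptide receptor gene Npy4r had 82 and 18 reads.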

How the data were processed

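Total RNA was taken up in TRIzol and sequenced after NEBNext Ultra II library preparation, per the labels' protocols. Trimming with cutadapt, alignment with HISAT2 to GRCm39 and counting with HTSeq are credited to the submitters' processing notes, without versions or a strand setting. The authors deposited unnormalised counts of reads for every gene and library, and the tests use them. It also holds FPKM values, which the authors scaled by gene length and library total and which were not used here.

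Differences were tested with edgeR 4.0.16 (R 4.3.3; limma 3.58.1; DESeq2 1.42.0 as an alternative): TMM factors, quasi-likelihood F-test, 1 mean for each of 3 groups over all 9 libraries, genes kept by filterByExpr at a minimum count of 10, and Benjamini-Hochberg adjustment over all 13013 tested genes at 0.05. The scripts were tested on simulated data. "Overlap" refers to the per-library CPM of the 2 day 3 groups. Genes named for a large change or a small p tend to have groups that lie apart, so this adds no support for them. Counts limit precision: a floor of 3 reads covers counting error only.

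The comparison, its gene lists and members were chosen with earlier results of these data known. Lists share members, such as Col1a1 and Col1a2 in the osteoblast and fibrillar collagen lists, so their counts are not independent. Genes were named by rule. The first part took the 15 largest changes and the 10 largest CPM differences in either direction. It ranked only called genes with at least 5 CPM in the higher group, group values that did not overlap and no predicted name. The second part took the 4 smallest p of each list of tissue and pathway genes and the 2 highest levels of each list. Members named beyond the rule were chosen after their values were seen. Symbols older than the lists were matched through RefSeq synonyms. Lengths are those of the deposited table, and GC shares come from GENCODE transcripts and were available for 99.9% of tested genes. Promoters are the first one listed per gene in RefSeq, searched on both strands. Libraries were treated as unpaired, since same-numbered ones did not deviate together, which cannot exclude a pairing. Some named genes that the rule selects are not reported here.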

Additional observations from a re-analysis of the deposited data

How the results depend on the processing

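Plagl1 was called lower under all 16 alternatives (log2 fold change −0.87 to −0.75). With limma voom and sample weights 3320 genes were called (26.5% of those tested), 1590 of them higher, against 2209 (17.6%) and 1006. With a minimum count of 50, 173 genes passed at 2-fold or more, 32 of them higher, against 267 and 61; fewer genes were tested there. With 1 library left out, the calls ranged from 1415 to 2832 (11.2% to 22.3% of genes tested), of which 524 to 1311 were higher and 891 to 1521 lower. Those of at least 2-fold ranged from 239 to 288, and the listed genes called from 366 to 493. DESeq2 called 2072 genes and offsets for length and GC share, chosen after seeing the data, 2506, with 1331 higher and 1175 lower, so that higher genes outnumbered lower ones there.

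Same-numbered libraries did not deviate together (correlations −0.018, −0.077 and 0.015). With 3 libraries a group this cannot exclude a pairing. With a replicate block, fitted over the day 3 libraries alone, 1718 genes were called, 733 higher and 985 lower, against 2013 over those libraries with no block. In brackets below are the counts of the reported analysis and of the day 3 libraries with no block. Called higher with the block were 2 guidance genes (4 and 3), 0 tRNA synthetases (2 and 2), 1 glycolysis gene (3 and 1) and 7 macrophage markers (11 and 9). Called lower with the block was 1 endoplasmic reticulum gene (3 and 3). The glycolysis count was thus the same over the day 3 libraries without the block. Of 178 called genes named here, 174 kept their call in each alternative that tested them, and none changed sign. Mmp3, Saa3, Postn and Gabra4 lost theirs in at least 1. Most named genes were picked for large changes or small p in these same libraries, so this share does not describe called genes in general. Of all 2209 called genes, 1106 kept their call. Among uncalled genes, the log2 fold change of Col3a1 was 0.002 and that of Lyz2 −0.074 with offsets. Lyz2 ran from −0.044 to 0.063 and Shisa9 from −1.88 to 3.21 with 1 library left out, and Shisa9 was at −0.13 with limma voom. The cause was not tested. Depth limits the genes under 1 CPM, of which 5.21% were called.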
